A study of Homo sapiens with 6 samples.

Results

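The 10 enzymes described here were the glutathione peroxidases GPX1, GPX2, GPX3, GPX4, GPX7 and GPX8, catalase (CAT) and the superoxide dismutases SOD1, SOD2 and SOD3. They were taken by gene symbol from the 58884 genes of the expression matrix, and a symbol listed more than once was represented by its most abundant entry, which mattered only for SOD2. The values were normalized read counts per gene from RNA-seq of 6 libraries made from total RNA. KYSE450 is a human esophageal squamous cell carcinoma (ESCC) line with wild-type NRF2, and 3 libraries came from these parental cells. The other 3 came from KEAP1null-KYSE450, a line grown from a single clone after CRISPR-Cas9 cutting of KEAP1 in the same cells. Neither line was treated. The comparison asked how the loss of KEAP1 changes gene expression in these cells. Because 1 clone was set against its parental line, the loss of KEAP1 and other properties of that clone cannot be told apart.

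KEAP1 is the adaptor that directs the transcription factor NRF2 (gene NFE2L2) to ubiquitination, so that NRF2 and its targets are held low when KEAP1 works. Superoxide dismutases turn superoxide into hydrogen peroxide. Catalase, in peroxisomes, breaks hydrogen peroxide down without consuming glutathione, whereas glutathione peroxidases such as GPX1 and GPX2 reduce peroxides with electrons from glutathione. GPX2 is the glutathione peroxidase of epithelial cells, best known from the gut, and GPX4 is the one that reduces lipid peroxides in membranes and protects from ferroptosis.

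The glutathione peroxidases fall into 2 kinds by the residue in the active site, and the coding sequence around it is shown because the members of the first kind depend on selenium. The stretches below are 27 coding bases each, read 5′ to 3′ on the sense strand of the annotated canonical transcripts (GENCODE, hg38), with the catalytic codon in capitals.
GPX1: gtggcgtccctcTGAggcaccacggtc
GPX2: gtggcttcgctcTGAggcacaaccacc
GPX3: gtggccagctacTGAggcctgacgggc
GPX4: gtggcctcccagTGAggcaagaccgaa
GPX7: gtggccagcgagTGCggcttcacagac
GPX8: gtggccagtgacTGCcaactcacagac
In GPX1, GPX2, GPX3 and GPX4 the capital codon is TGA, a stop codon that is read as selenocysteine in these mRNAs. In GPX7 and GPX8, which reside in the endoplasmic reticulum, it is TGC, a cysteine codon. The stretches lie at chr3:49358120-49358146 (minus strand, exon 1 of 2) for GPX1, chr14:64942595-64942621 (minus strand, exon 1 of 2) for GPX2, chr5:151025457-151025483 (plus strand, exon 2 of 5) for GPX3 and chr19:1105391-1105417 (plus strand, exon 3 of 7) for GPX4. Those of the cysteine enzymes lie at chr1:52606702-52606728 (plus strand, exon 2 of 3) for GPX7 and chr5:55161012-55161038 (plus strand, exon 2 of 3) for GPX8. The codon is number 49 of 203 in GPX1 and number 40 of 190 in GPX2.

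The summed normalized counts were 54829313 to 57380170 per library. In 4 of the libraries whole reads could be recovered, 53027359 to 61543442 per library. There 3 reads, taken as the highest expected level that a count of 0 leaves possible, were worth 2.77 to 3.21 normalized counts. KEAP1 itself read 5760, 5226 and 5146 normalized counts in KYSE450 and 5737, 4906 and 5317 in KEAP1null-KYSE450. Its mRNA did not separate the lines, and since small deletions made by Cas9 need not lower a transcript, the level is no check of the labels. All 6 epithelial markers were expressed in both lines, with a median log2 difference of -0.71. KRT5 was higher in the clone (1.46) and ITGA6 lower (-1.09) by both criteria given below for the enzymes, TP63 (-0.60), SOX2 (-0.997) and CDH1 (-0.82) were lower by the adjusted p alone, and EPCAM (-0.02) did not pass the test. Their sum, 250904 to 342025 normalized counts in KYSE450 and 576707 to 716999 in KEAP1null-KYSE450, was mostly KRT5, with means of 208100 and 568248. The 6 fibroblast markers summed to 622 to 853 in KYSE450 and 349 to 436 in KEAP1null-KYSE450, nearly all of it COL1A1, and the 3 endothelial markers to 57.8 to 73.8 and 41.5 to 68.6. PECAM1 was at 0, CDH5 fell from a mean of 19.9 to 1.97 (-2.77, adjusted p = 0.004802 by limma), and VWF (0.25) did not pass the test. The part of these markers in the results was not tested.

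Of the 10 enzymes, 9 passed the filter of a mean of at least 10 normalized counts, as did 16701 genes in all. The glutathione peroxidases GPX2 and GPX3 and catalase rose in KEAP1null-KYSE450, by the criteria of an adjusted p under 0.05 (limma, Benjamini-Hochberg adjustment over all genes tested) and a log2 difference of at least 1. These were 3 of the 9, against 12.2% of all genes tested that were higher by the same criteria. In these bulk libraries fewer cells that express a gene and less RNA per cell cannot be told apart. None of the 9 was lower by both criteria (0 of 9 by limma, and 0 by edgeR and by DESeq2), against 5.98% of all genes, and 1 was lower at an unadjusted p under 0.05. By the adjusted p alone, 4 were higher and 1 was lower, against 24.3% and 25.5% of all genes, the additions being SOD1 and GPX1. The libraries of the lines did not overlap for 6 of the 9, against 57.8% of all genes tested. The median log2 difference of the 9 was 0.50, and that of all genes tested was 0.0041.

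**Figure D1:**
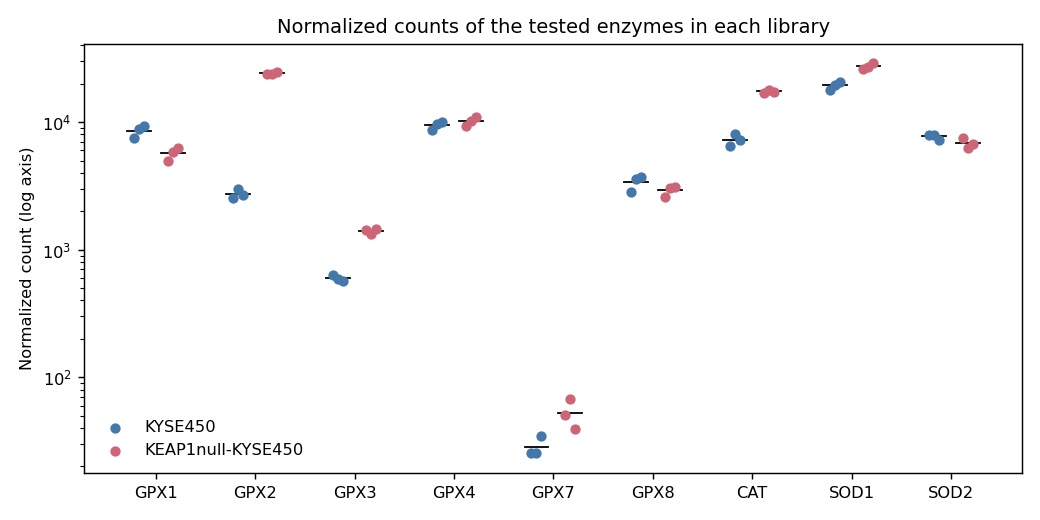
Normalized counts of each tested enzyme by library, on a log axis, with 1 point per library and a bar at the mean of the 3 libraries of each line. GPX2 lay between 2524 and 2979 in KYSE450 and between 23653 and 24785 in KEAP1null-KYSE450, whereas the points of GPX4, GPX8 and SOD2 overlapped between the lines.

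GPX2 showed by far the widest separation of the lines among the 9. It read 2524, 2979 and 2680 normalized counts in KYSE450 and 23863, 23653 and 24785 in KEAP1null-KYSE450. Every library of the clone thus lay far above every parental library, with little spread inside either line. The means were 2728 ± 231 and 24100 ± 602 (SD, n = 3), a ratio of 8.84. The log2 difference was 3.15 (SE 0.093, 95% interval 2.94 to 3.35, adjusted p = 5.354e-11 by limma), and 98.2% of the 16701 genes tested had a smaller one. GPX2 (ENSG00000176153) lies on the minus strand of chr14:64939152-64942746 and has 2 exons.

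GPX3, the secreted plasma glutathione peroxidase, was a much rarer transcript. Its normalized counts were 632, 591 and 567 in KYSE450 and 1436, 1316 and 1461 in KEAP1null-KYSE450. The clone's libraries were all above the parental ones. The means were 597 ± 32.9 and 1404 ± 77.4 (SD, n = 3), and the log2 difference was 1.23 (SE 0.11, 95% interval 0.99 to 1.47, adjusted p = 2.261e-06 by limma). The gene spans chr5:151020591-151028988 on the plus strand.

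GPX1, the widespread glutathione peroxidase of the cytosol and mitochondria, differed in the other direction. It read 7488, 8791 and 9382 normalized counts in KYSE450 and 4979, 5839 and 6257 in KEAP1null-KYSE450. All parental libraries were above all libraries of the clone. The mean went from 8554 ± 969 to 5692 ± 652 (SD, n = 3), a ratio of 0.665, and the log2 difference was -0.59 (SE 0.11, 95% interval -0.83 to -0.34, adjusted p = 0.00101 by limma), short of the fold criterion. The processed pseudogene GPX1P1 carried 924, 1100 and 1277 normalized counts in KYSE450 and 648, 705 and 880 in KEAP1null-KYSE450, and reads of the near-identical copies may have been divided between them. GPX1, at chr3:49357174-49358605 on the minus strand, also shares 39.94% of its exon bases with an overlapping gene on the same strand that has no row in the matrix, so its level is uncertain.

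GPX4 was abundant in both lines. Its counts were 8683, 9613 and 10029 in KYSE450 and 9277, 10266 and 11020 in KEAP1null-KYSE450, with the lines overlapping. The log2 difference of 0.11 did not pass the test (SE 0.099, 95% interval -0.11 to 0.32, adjusted p = 0.3845 by limma). The gene lies at chr19:1103982-1106791 on the plus strand.

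The cysteine enzymes gave no call. GPX7 was near the lower end of what was tested, with 25.7, 25.3 and 34.5 normalized counts in KYSE450 and 50.8, 67.3 and 39.3 in KEAP1null-KYSE450. The lines did not overlap, but the clone's libraries were widely spread, and the log2 difference was 0.84 (SE 0.33, 95% interval 0.12 to 1.56, adjusted p = 0.05256 by limma). Without KEAP1null-KYSE450 library 3 it was 1.03 with an adjusted p of 0.04656. Of the 15 alternative settings in which GPX7 could be fitted, this was the only one that gave a call by both criteria. Over them the adjusted p ran from 0.02973 to 0.4071. Without KYSE450 library 3 it was also under 0.05 (0.04608 by limma), at a log2 difference of 0.98. GPX8 read 2812, 3602 and 3723 in KYSE450 and 2597, 3070 and 3123 in KEAP1null-KYSE450, overlapping between the lines, with a log2 difference of -0.20 (SE 0.12, 95% interval -0.46 to 0.066, adjusted p = 0.1945 by limma). GPX7 lies at chr1:52602371-52609051 and GPX8 at chr5:55160167-55167297, both on the plus strand.

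Catalase was higher in the clone. CAT read 6544, 8045 and 7293 normalized counts in KYSE450 and 17012, 18013 and 17268 in KEAP1null-KYSE450. The lowest library of the clone was above the highest parental one by more than the whole spread inside either line. The means were 7294 ± 750 and 17431 ± 520 (SD, n = 3), and the log2 difference was 1.26 (SE 0.098, 95% interval 1.05 to 1.47, adjusted p = 5.867e-07 by limma). CAT has 13 exons at chr11:34438934-34472060 on the plus strand.

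SOD1, the copper and zinc superoxide dismutase of the cytosol, had the highest mean count of the 10 enzymes. It read 17881, 19633 and 20690 normalized counts in KYSE450 and 26124, 27121 and 28833 in KEAP1null-KYSE450, with no overlap. The log2 difference was 0.50 (SE 0.097, 95% interval 0.29 to 0.71, adjusted p = 0.001051 by limma), a ratio of 1.41 that did not reach the fold criterion. SOD2, the manganese enzyme of mitochondria, read 7939, 7923 and 7308 in KYSE450 and 7457, 6258 and 6687 in KEAP1null-KYSE450. Its lines overlapped, and the log2 difference of -0.19 did not pass the test (SE 0.096, 95% interval -0.39 to 0.021, adjusted p = 0.1244 by limma). The position given for SOD2 is that of the annotated gene of the same symbol, since the identifier in the matrix is another one. Some exon bases of SOD2 are shared with WTAP and ACAT2 on the opposite strand, and the sources used here do not say that the counting used strand. With SOD2-OT1, on the same strand, 939 exon bases are shared. The means of SOD2-OT1 were 20.0 normalized counts in KYSE450 and 28.8 in KEAP1null-KYSE450. SOD3, the extracellular enzyme, was at 0 in all 6 libraries, so that no read of it was counted. A level worth up to 3 expected reads in a library can still give a count of 0. SOD1 lies at chr21:31659666-31668931, SOD2 at chr6:159669069-159762529 on the minus strand and SOD3 at chr4:24789912-24800842.

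In both lines the first library was the lowest of the 3 for GPX1, GPX4, GPX8, CAT and SOD1. Library numbers are only names taken from the column order. The ratio of GPX1 to GPX4 inside a library varied less within a line than either gene did. Per kilobase of merged exons it was 1.11, 1.18 and 1.20 in KYSE450 and 0.690, 0.731 and 0.730 in KEAP1null-KYSE450.

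**Figure D2:**
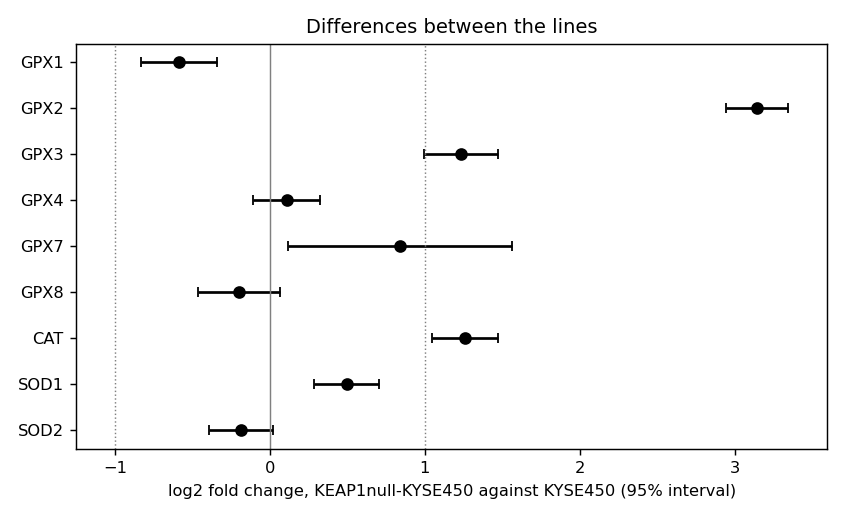
Log2 difference of KEAP1null-KYSE450 against KYSE450 for the 9 tested enzymes, with 95% intervals from limma (n = 3 libraries per line). GPX2 stands at 3.15, CAT at 1.26 and GPX3 at 1.23, SOD1 at 0.50 and GPX1 at -0.59, and the intervals of GPX4, GPX8 and SOD2 include 0.

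Levels of different genes can be compared only per length, and counts were therefore divided by the length of each gene's merged exons. The 6 glutathione peroxidases together came to 12752 to 15132 normalized counts per kilobase in KYSE450 and 27477 to 30136 in KEAP1null-KYSE450. GPX2 made up 14.4% of that sum in KYSE450 (13.2% to 15.1% over the libraries) and 62.7% in KEAP1null-KYSE450 (61.4% to 64.8%). The share of GPX1 was 42.0% in KYSE450 and 13.8% in KEAP1null-KYSE450, and that of GPX4 was 36.2% and 19.3%.

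GPX3 kept a small share, 1.41% and 1.63%, although its level rose. GPX2, at 2035 normalized counts per kilobase, was below GPX1 (5973) and GPX4 (5131) in the parental line, and in the clone, at 17985, it was above GPX4 (5537) and GPX1 (3975). By this length GPX8, GPX3 and GPX7 followed in that order in both lines. With the canonical transcript as the length, a choice made after the data were seen, GPX2 had 11.9% of the sum in KYSE450 and 56.7% in KEAP1null-KYSE450, while GPX4 (11095) came above GPX1 (9515) in KYSE450. With that length GPX3 (876, 821 to 911 over the libraries) also came above GPX8 (785, 696 to 837) in KEAP1null-KYSE450, the libraries overlapping. The order of GPX1 and GPX4 in the parental line and that of GPX3 and GPX8 in the clone therefore depend on the length used.

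**Figure D3:**
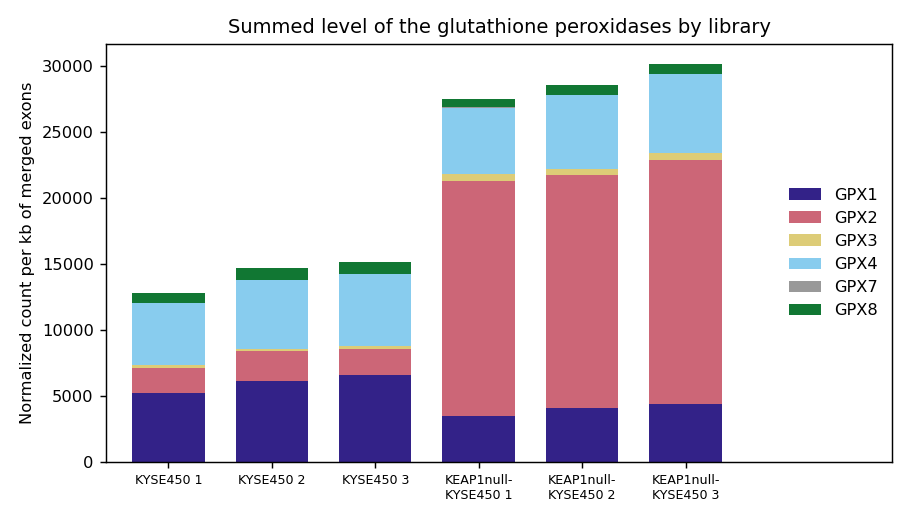
Normalized counts per kilobase of merged exons of the 6 glutathione peroxidases, stacked, with 1 bar for each library. The GPX2 segment makes up 13.2% to 15.1% of the bar in KYSE450 and 61.4% to 64.8% in KEAP1null-KYSE450, and GPX7 is too small to see.

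The ratio of GPX2 to GPX1 per kilobase was 0.360, 0.362 and 0.305 in the parental libraries and 5.12, 4.33 and 4.23 in those of the clone. CAT to SOD1 went from 0.202, 0.226 and 0.195 to 0.359, 0.367 and 0.330. These ratios did not overlap between the lines. As both genes of a ratio come from the same library, differences in depth between libraries cancel.

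For the 3 enzymes that rose, the 250 bases before the RefSeq start (GRCh38.p14) are shown, read 5′ to 3′ in the direction of the gene. Capitals mark matches, on either strand, to TGACNNNGC, the core of the antioxidant response element bound by NRF2 with small MAF proteins, and to CCAAT, the box bound by NF-Y, which reads ATTGG on the other strand.
GPX2: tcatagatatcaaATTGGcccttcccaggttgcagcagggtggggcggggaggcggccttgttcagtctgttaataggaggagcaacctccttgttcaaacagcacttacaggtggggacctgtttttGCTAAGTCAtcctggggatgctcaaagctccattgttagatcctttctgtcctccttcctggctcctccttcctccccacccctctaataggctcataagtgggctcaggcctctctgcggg
CAT: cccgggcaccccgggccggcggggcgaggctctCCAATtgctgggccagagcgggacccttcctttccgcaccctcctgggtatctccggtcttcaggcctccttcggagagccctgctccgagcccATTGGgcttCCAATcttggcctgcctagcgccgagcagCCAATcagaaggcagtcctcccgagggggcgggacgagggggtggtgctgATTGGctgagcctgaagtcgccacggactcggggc
GPX3: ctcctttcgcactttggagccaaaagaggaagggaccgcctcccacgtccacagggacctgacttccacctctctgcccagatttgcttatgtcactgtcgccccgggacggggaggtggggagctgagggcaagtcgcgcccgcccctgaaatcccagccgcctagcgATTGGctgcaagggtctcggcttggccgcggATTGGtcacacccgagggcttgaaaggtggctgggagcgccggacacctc
The windows are chr14:64942746-64942995 (minus strand) for GPX2, chr11:34438684-34438933 (plus strand) for CAT and chr5:151020341-151020590 (plus strand) for GPX3. TGACNNNGC occurred once in the GPX2 window, on the strand opposite to the one printed, at chr14:64942859-64942867, and in neither of the others. CCAAT occurred 1 time in the GPX2 window, 5 times in that of CAT and 2 times in that of GPX3. RefSeq promoters were found for 9 of the 10 enzymes, SOD1 being the other, and they gave 14 windows because some genes have several starts. Of these 14, 1 held TGACNNNGC and 8 held CCAAT, against 10.9% and 32.0% of the 35116 promoters of the same length in the table. The 14 are not independent, since SOD2 gave 4 of them and GPX4 gave 3. The first 2 windows of GPX4 overlap and share CCAAT matches, which are counted in both. The matches are letters in a window and were not measured as binding sites.

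Around GPX2 on chromosome 14, the 10 nearest tested genes, 5 on each side, had a median log2 difference of 0.71 (-0.36 to 2.34), and 4 of them rose. They were RAB15 (2.34, adjusted p = 2.15e-07 by limma), a small GTPase gene that is the next tested gene on one side, FUT8-AS1 (2.14), SPTB (1.33) and CHURC1 (1.31). GPX2, at 3.15, was above all of these. The 10 neighbours of SOD1 had a higher median still, 0.83 (-0.42 to 6.48), with 3 of them called higher, and SOD1, at 0.50, was below it. Whether the region around GPX2 or that around SOD1 as a whole differs between the clone and the parental line was not tested. The 10 neighbours of CAT had a median of -0.24 (-0.77 to 1.24), and those of GPX3 a median of -0.26 (-3.53 to 1.09). GPX4 stood among genes that were all below 0, with a median of -0.53 (-1.28 to -0.12).

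**Figure D4:**
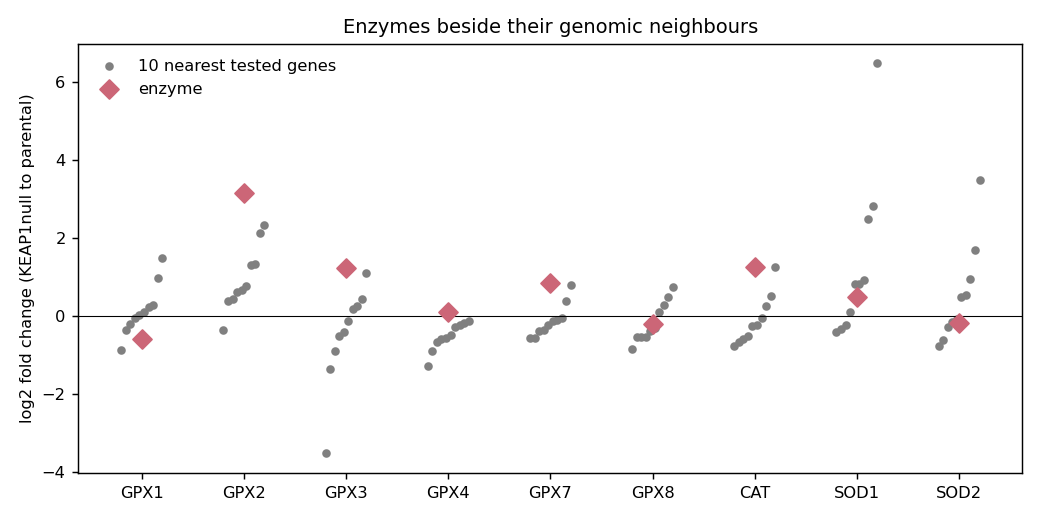
Log2 differences of each tested enzyme (diamond) and of the 10 nearest tested genes (points), 5 on each side, placed left to right by value. GPX2 at 3.15, CAT at 1.26, GPX3 at 1.23, GPX7 at 0.84 and GPX4 at 0.11 lie above all of their neighbours. The margin of CAT over LMO2 (1.24) is smaller than the SE of CAT (0.098). That of GPX7 over ECHDC2 (0.78) is smaller than the SE of GPX7 (0.33).

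The genes whose log2 values over the 6 libraries were most like those of GPX2 were AKR1A1 (Pearson r = 0.99997), an aldo-keto reductase, CBR1 (r = 0.99962), a carbonyl reductase, and HIBADH (r = 0.99958), a mitochondrial dehydrogenase of valine breakdown. In all, 327 tested genes had an r over 0.99. With 2 lines of 3 libraries such values mostly repeat the difference between the lines and are given as a description. AKR1A1 read 5163 normalized counts on average in KYSE450 and 16712 in KEAP1null-KYSE450, and CBR1 7861 and 51553.

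Genes that supply or share the work of these enzymes were read from the same fit. Of 6 glutathione synthesis and recycling genes, 3 rose and none fell by both criteria (4 higher and 0 lower by the adjusted p alone), with a median log2 difference of 0.93. GCLC and GCLM, the subunits of the enzyme that starts glutathione synthesis, were higher by 3.98 and 3.36, and GSR, which regenerates glutathione with NADPH, went from a mean of 6174 to 13415 normalized counts (adjusted p = 8.544e-07 by limma). Among the 6 peroxiredoxins, thiol peroxidases that also reduce hydrogen peroxide, only PRDX1 rose by both criteria. By the adjusted p alone, 3 of them were higher and 0 lower. The mean of PRDX1 went from 60594 to 196563 (1.70, adjusted p = 1.085e-07 by limma), while the median of the 6 was 0.18.

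None of the 10 genes of selenocysteine synthesis and insertion was called by both criteria, and their log2 differences ran from -0.65 to 0.74 (3 higher and 1 lower by the adjusted p alone). Of 19 other selenoproteins 15 were tested, and 2 rose and 0 fell, against 12.2% and 5.98% of all genes tested. By the adjusted p alone, 4 of the 15 were higher and 2 lower. TXNRD1, the cytosolic thioredoxin reductase, was higher by 1.85 (adjusted p = 2.891e-08 by limma), and SELENOP, a selenium carrier, went from a mean of 123 to 437 normalized counts (1.80, adjusted p = 3.883e-06). Of the 4 copper delivery genes none was called by both criteria and 2 were higher by the adjusted p alone. CCS, the chaperone that loads copper into SOD1, was higher by 0.53 (adjusted p = 0.003411 by limma). The other one, ATP7A, was higher by 0.65 (adjusted p = 0.005069 by limma). The 16 peroxisome import and assembly genes, on whose products catalase depends for its place in the cell, had a median of -0.069, with none called by both criteria, 3 higher and 4 lower by the adjusted p alone. GPX5 and GPX6 were at 0 in every library.

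**Figure D5:**
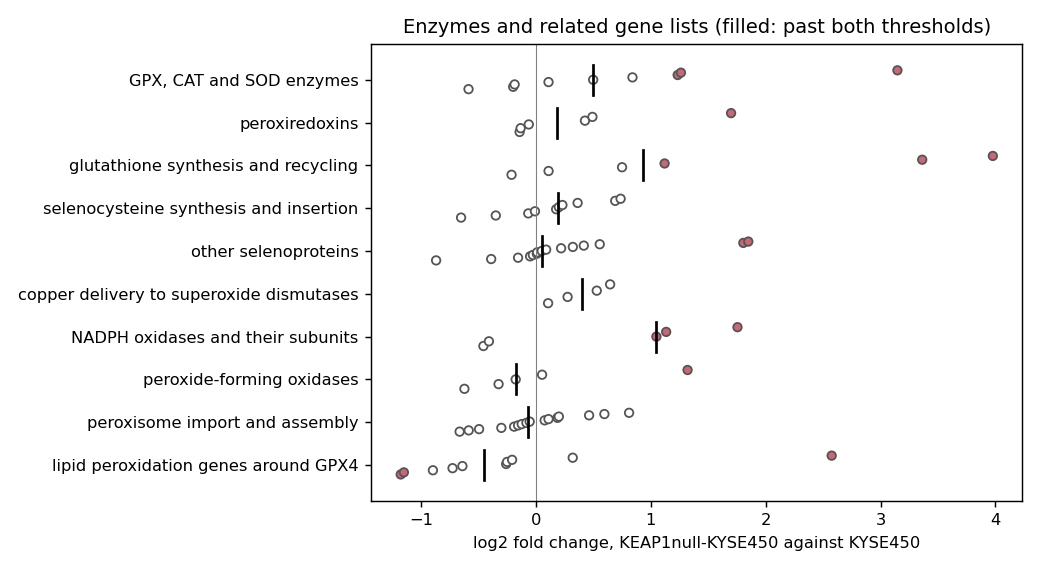
Log2 differences of the tested genes in each list of related genes, 1 point per gene, filled where both criteria were passed, with a bar at the list's median. The glutathione genes have a median of 0.93 and the peroxisome genes one of -0.069, and GCLC at 3.98 is the highest point.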

How the data were processed

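RNA of KYSE450 and KEAP1null-KYSE450 cells was sequenced (3 libraries each). Per the labels and the methods, the authors used FastQC 0.11.5, cutadapt 1.12, STAR 2.6.90c and featureCounts 1.5.1 with hg38, and named DESeq2 for the comparison of lines. How strand was counted is not given in the sources used here. The deposited matrix holds normalized counts, a signal in which each library's counts are divided by 1 size factor. Its columns carry no replicate number, so libraries are numbered by their order. Whole reads could be recovered for 4 libraries (100% of values within 0.1 of a whole read), 2 per line.

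Values were tested as log2(normalized count + 1) with limma 3.58.1 in R 4.3.3 (trend), for genes with a mean of at least 10, with Benjamini-Hochberg adjustment over all 16701. A gene was called where its adjusted p was below 0.05 and its log2 difference reached 1 in either direction, the thresholds of the methods, and "rose" and "fell" are used for such calls. Fold changes on this scale understate those of low genes. Nothing says that libraries came from separate cultures, so p-values measure only the spread between libraries, which may be technical. Alternatives were other pseudocounts, filters and scalings, leaving out each library, no fold criterion, no trend, and edgeR 4.0.16 and DESeq2 1.42.0 on the recovered reads. The methods' own test, DESeq2, was an alternative because the deposited values are not raw counts. Positions and lengths came from GENCODE (hg38) and promoters from RefSeq. The enzymes and lists were chosen with earlier results of these data known. Named genes were all 10 enzymes, up to 3 called genes per list and direction, the 3 genes most like GPX2, and overlapping or neighbouring genes that bear on an enzyme. Genes named outside that rule were KEAP1, the markers that were not called, CCS, ATP7A, GPX1P1, GPX5 and GPX6. ACSL4, GCH1, LPCAT3, DHODH, AIFM2, RAC1, NOXO1, NOX1, CYBB, NOX3, NOX4, NOX5 and DUOX2 were also outside it. Some of these genes were named after their values were seen. The limma script was tested on simulated data. The result of 1 list of markers is not reported here.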

Additional observations from a re-analysis of the deposited data

How the results depend on the processing

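GPX2, CAT and GPX3 remained called in all 16 alternatives, with log2 differences of 3.09 to 3.31, 1.19 to 1.45 and 1.20 to 1.28. No direction among the 9 enzymes reversed. SOD1 ranged from 0.44 to 0.71 (adjusted p 9.149e-05 to 0.04784) and GPX1 from -0.68 to -0.41 (0.0001014 to 0.01842). GPX4 had an adjusted p of 0.0279 after quantile normalization (range over the settings 0.0279 to 0.8051), GPX8 one of 0.01632 without KYSE450 library 1 (0.01632 to 0.7127) and SOD2 one of 0.04815 without KEAP1null-KYSE450 library 1 (0.04815 to 0.8517), none reaching the fold criterion. Over all genes, 2045 were higher and 999 lower, 67.2% of calls being higher. With the filter at a mean of 100, 12341 genes were tested, and 875 were higher and 683 lower (56.2% of calls higher). Without a fold criterion 4060 were higher and 4251 lower, and 4 of the enzymes were higher and 1 lower. Quantile normalization gave 51.8% higher calls (1388 higher, 1289 lower). edgeR called 1836 higher and 876 lower, and DESeq2 1633 and 881. Leaving out each library gave 1748 to 2018 higher and 874 to 1094 lower genes, and 3 enzymes higher, or 4 without KEAP1null-KYSE450 library 3. No paired analysis was possible because the columns carry no replicate number. Depth limits SOD3, since a level worth up to 3 expected reads per library can still give a count of 0.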

Other observations

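Other lists of genes that make peroxides or deal with their products were read from the same limma fit. Of 12 lipid peroxidation and ferroptosis genes around GPX4, 10 were tested, 1 rose and 2 fell, with 2 higher and 6 lower by the adjusted p alone and a median log2 difference of -0.45. The partners of the cystine transporter differed in opposite directions. SLC7A11, its transport subunit, read 2452, 2141 and 2440 normalized counts in KYSE450 and 16496, 13135 and 12491 in KEAP1null-KYSE450 (2.57, adjusted p = 3.13e-09). SLC3A2, the heavy chain that it shares with other amino acid transporters, read 48029, 39384 and 37759 in KYSE450 and 24860, 14847 and 17689 in KEAP1null-KYSE450 (-1.15, adjusted p = 0.0001009). ALOX12, a lipoxygenase, fell from a mean of 63.9 to 27.9 (-1.18, adjusted p = 0.01069). Short of the fold criterion, ACSL4 (-0.64) and LPCAT3 (-0.73), which load polyunsaturated fatty acids into lipids, GCH1 (-0.90), which starts tetrahydrobiopterin synthesis, and DHODH (-0.26) were lower by the adjusted p alone. AIFM2, a ferroptosis suppressor that acts beside GPX4, was higher by it (0.32, adjusted p = 0.02417).

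Of 17 NADPH oxidase and subunit genes 5 were tested, 3 rose and none fell, against 12.2% and 5.98% of all genes tested. By the adjusted p alone 3 of the 5 were higher and 1 lower, and their median was 1.05. RAC1, by far the most abundant of them, was the lower one, with means of 23385 and 17029 (-0.46, adjusted p = 0.001375), and NOXO1 (-0.41) did not pass the test. RAC2 went from a mean of 67.2 to 228 normalized counts (1.75), NOXA1 from 144 to 315 (1.13) and DUOX1 from 55.6 to 113 (1.05), all at low levels. Of the oxidases themselves only DUOX1 was tested. NOX1, CYBB, NOX3, NOX4, NOX5 and DUOX2 were below the filter, NOX1 and NOX3 at 0 in every library. Of 11 peroxide-forming oxidases 5 were tested and PIPOX rose, from 42.4 to 106 (1.32), with 1 higher and 1 lower by the adjusted p alone and a median of -0.18 over the 5.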
